A study of Mus musculus with 6 samples.

Results

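The genes for the proteins of the mitochondrial ribosome were compared between control and *Atgl* ECKO lung endothelial cells (LECs). Members were taken by symbol, as every row named *Mrpl* or *Mrps* with a number and at most 1 further letter, with a mean of at least 1 CPM (counts scaled to the same total in each library) over the libraries. Of 78 rows with such a symbol 77 met this level, 48 *Mrpl* genes (large subunit) and 29 *Mrps* genes (small subunit), among 12837 genes at the same level and 20409 gene symbols in all. *Mrpl23* was the row left out, at 0.851 ± 0.245 CPM for control LECs and 0.697 ± 0.110 CPM for *Atgl* ECKO LECs (SD, n = 3 libraries each). The lowest members above the threshold were *Mrps36*, with 5.24 ± 0.675 and 5.30 ± 0.547 CPM, and *Mrps28*, with 4.88 ± 0.198 and 6.51 ± 0.331 CPM.

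Bulk RNA was sequenced from untreated LECs in 6 libraries, 3 from control (*Atgl* fl/fl) and 3 from *Atgl* ECKO mice, in which Cdh5-Cre removes the floxed *Atgl* gene from endothelium. The cells of both genotypes were selected by CD31, immortalized with the middle T antigen and grown in the same medium. Whether libraries of the same genotype stem from different cultures or different mice is not in the labels. The p-values therefore cover the spread among 3 libraries, and that spread may be technical. If each genotype is a single immortalized line, the loss of ATGL and other differences between those lines cannot be told apart. *Pnpla2*, which encodes ATGL, had 27.6, 26.3 and 30.1 CPM in the control libraries and 9.97, 9.11 and 9.13 CPM in the *Atgl* ECKO libraries, which left 33.6% of the control level (log2 fold change -1.48, adjusted p = 1.84e-12 from limma). Of 10 endothelial markers 4 were higher, 4 were lower and 2 were not called, beside 34.2% higher and 36.2% lower over all tested genes. Their summed level was 5182 to 5359 CPM in control and 5195 to 5548 CPM in *Atgl* ECKO libraries. Single markers differed more than the sum, with log2 fold changes from -0.53 to 1.90, of which 1 was beyond 1 in size. Of 15 markers of other lung cells 11 were in the table, with a summed level of 20.1 to 23.4 CPM in control and 63.4 to 74.3 CPM in *Atgl* ECKO libraries. *Cd68*, a lysosomal protein of macrophages, made up most of that sum, and without it the sums were 3.18 to 3.83 and 3.04 to 3.25 CPM. Only 2 of the 11 averaged at least 1 CPM and were tested, *Cd68*, which was higher, and 1 other. That other marker was called neither way (log2 fold change 0.185), though its genotypes did not overlap. The epithelial markers *Epcam*, *Cdh1* and *Sftpb*, the mesothelial marker *Msln* and the lymphatic marker *Prox1* each averaged under 0.1 CPM in both genotypes. The part of Cd68-expressing cells in the results was not tested.

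The mitochondrial ribosome translates the few mRNAs of mitochondrial DNA, all of which encode inner membrane subunits of oxidative phosphorylation. Its rRNAs are made inside the organelle, but every one of its proteins is encoded in the nucleus, made on cytosolic ribosomes and imported. Some of these proteins descend from bacterial ribosomal proteins, and others are found only in mitochondria, where they extend the surface of the particle. The small subunit reads the mRNA and the large subunit forms the peptide bond. In mammals, genes of this kind often carry promoter elements for GABP (an ETS factor, also called NRF-2), NRF1 and YY1.

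The windows around transcription starts are shown for the genes the results turn on, since a promoter is where members on different chromosomes could share sequence. Each window runs from 250 bases before to 50 bases after a RefSeq start (GRCm38.p6) and is written 5′ to 3′ on the strand of the gene, with capitals for matches on either strand to CCGGAAG (ETS), GCGCANGCG (NRF1) or AAGATGGCG (YY1). The first 4 belong to the members with the highest fold changes, *Mrps16* (chr14:20393441-20393740, minus strand), *Mrpl11* (chr19:4962056-4962355, plus strand), *Mrpl34* (chr8:71464676-71464975, plus strand) and *Mrpl43* (chr19:45006393-45006692, minus strand).
Mrps16: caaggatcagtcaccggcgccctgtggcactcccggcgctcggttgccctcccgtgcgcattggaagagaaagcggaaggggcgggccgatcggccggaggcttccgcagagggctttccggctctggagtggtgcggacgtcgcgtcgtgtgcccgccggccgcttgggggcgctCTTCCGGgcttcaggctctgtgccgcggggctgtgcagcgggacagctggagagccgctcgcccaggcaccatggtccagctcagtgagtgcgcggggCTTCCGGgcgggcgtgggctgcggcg
Mrpl11: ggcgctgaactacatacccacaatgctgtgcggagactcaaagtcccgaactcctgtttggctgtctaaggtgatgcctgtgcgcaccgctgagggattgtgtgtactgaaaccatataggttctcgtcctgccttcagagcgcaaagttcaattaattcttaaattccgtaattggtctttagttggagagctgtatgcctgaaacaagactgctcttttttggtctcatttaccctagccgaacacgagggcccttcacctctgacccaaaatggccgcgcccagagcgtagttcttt
Mrpl34: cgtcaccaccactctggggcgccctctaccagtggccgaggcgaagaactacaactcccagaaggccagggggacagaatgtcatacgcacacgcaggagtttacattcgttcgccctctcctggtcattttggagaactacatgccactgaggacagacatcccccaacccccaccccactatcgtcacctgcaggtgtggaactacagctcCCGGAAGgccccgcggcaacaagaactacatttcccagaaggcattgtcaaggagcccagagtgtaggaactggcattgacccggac
Mrpl43: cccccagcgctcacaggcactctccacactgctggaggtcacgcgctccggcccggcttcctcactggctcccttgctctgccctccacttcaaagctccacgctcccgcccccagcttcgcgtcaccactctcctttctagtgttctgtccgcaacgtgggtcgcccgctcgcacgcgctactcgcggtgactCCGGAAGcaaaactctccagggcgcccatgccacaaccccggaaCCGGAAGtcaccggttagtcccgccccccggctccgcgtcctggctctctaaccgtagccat
The ETS letters stand in *Mrps16* at positions -74 and 24 from the start, and at positions -56 and -12 in *Mrpl43*. They stand in *Mrpl34* at position -37, while *Mrpl11* holds none of these letters. A further RefSeq start of *Mrps16* lies upstream, and its window holds none of them either.

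The next set shows a member with a higher level, *Mrps18b* (chr17:35916391-35916690, minus strand), one called neither way, *Mrpl12* (chr11:120484387-120484686, plus strand), and a pair with lower levels, *Mrpl22* (chr11:58171414-58171713, plus strand) and *Mrps11* (chr7:78782881-78783180, plus strand).
Mrps18b: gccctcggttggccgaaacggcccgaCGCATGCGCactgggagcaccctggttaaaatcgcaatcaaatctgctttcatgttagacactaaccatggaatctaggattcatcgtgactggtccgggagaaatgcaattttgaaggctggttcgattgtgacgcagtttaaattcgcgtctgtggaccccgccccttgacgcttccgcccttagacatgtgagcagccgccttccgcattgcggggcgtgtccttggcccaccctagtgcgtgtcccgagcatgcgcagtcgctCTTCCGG
Mrpl12: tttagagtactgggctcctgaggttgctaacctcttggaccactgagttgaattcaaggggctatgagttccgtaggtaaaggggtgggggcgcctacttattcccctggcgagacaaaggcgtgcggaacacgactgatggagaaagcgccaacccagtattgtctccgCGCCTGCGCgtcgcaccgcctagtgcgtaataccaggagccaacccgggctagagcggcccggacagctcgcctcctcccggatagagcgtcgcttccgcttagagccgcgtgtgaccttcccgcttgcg
Mrpl22: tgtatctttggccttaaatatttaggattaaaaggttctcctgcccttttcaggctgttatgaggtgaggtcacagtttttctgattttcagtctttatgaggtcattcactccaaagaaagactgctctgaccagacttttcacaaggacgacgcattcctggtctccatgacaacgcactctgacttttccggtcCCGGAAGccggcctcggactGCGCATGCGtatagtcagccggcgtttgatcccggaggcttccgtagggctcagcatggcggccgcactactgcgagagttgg
Mrps11: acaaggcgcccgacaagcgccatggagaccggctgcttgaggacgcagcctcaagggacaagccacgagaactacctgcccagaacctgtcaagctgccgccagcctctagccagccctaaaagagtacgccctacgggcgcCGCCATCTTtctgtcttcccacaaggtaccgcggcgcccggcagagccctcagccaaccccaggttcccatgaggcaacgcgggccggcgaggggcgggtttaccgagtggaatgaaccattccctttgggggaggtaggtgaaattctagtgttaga
Both ETS and NRF1 letters stand in *Mrps18b*, at positions 43 and -224, and in *Mrpl22*, at positions -53 and -33, although their fold changes had opposite signs. *Mrpl12* holds NRF1 letters at position -80, and *Mrps11* holds YY1 letters at position -108. The window of *Mrps11* overlaps that of *Mrpl46*, which starts nearby on the opposite strand.

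RefSeq windows were found for 68 of the 77 members. The ETS letters stood in 26 of these (38.2%), against 21.3% of 9125 tested genes with a window and 9.93% of all 27025 genes with a RefSeq window. The NRF1 letters stood in 16 members (23.5%, against 16.1% of tested genes) and the YY1 letters in 8 (11.8%, against 3.84%). At least 1 of these motifs was present in 42 members (61.8%) and in 35.8% of tested genes. By contrast, the GC box GGGCGG was found in 48.5% of members and 70.9% of tested genes, the E-box CACGTG in 7.35% and 12.1%, and the CRE palindrome TGACGTCA in 2.94% and 3.75%. ETS letters stood in 14 of 27 members with a higher level, 3 of 8 with a lower level and 9 of 33 called neither way, and NRF1 letters in 3 of 27, 2 of 8 and 11 of 33. A match to these letters is a description of the window and not a measured binding site.

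In *Atgl* ECKO LECs more mitochondrial ribosomal protein genes were higher than lower, and the changes were small. With limma on log2(CPM + 1) and Benjamini-Hochberg adjustment over all tested genes, 34 of 77 members were higher and 8 were lower at an adjusted p under 0.05, and 35 were called neither way. The background over all genes in the test was 34.2% higher and 36.2% lower, beside 44.2% and 10.4% of the members. The median log2 fold change of the members was 0.06, beside -0.01 for all tested genes. Their median absolute log2 fold change was 0.10, beside 0.21 for all tested genes. No member changed by more than 1 on the log2 scale, as 635 tested genes did, and 22 of the 42 called members changed by less than 1.2-fold. All *Atgl* ECKO libraries were above all control libraries for 36 members (35.3% of all tested genes) and below them for 12 (37.8% of all tested genes), and the genotypes overlapped for 29. Bulk values do not separate fewer cells of a kind from less RNA per cell, and these cannot be told apart here. Fold changes are on the log2(CPM + 1) scale, on which the added 1 CPM understates the change of low genes.

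**Figure D1:**
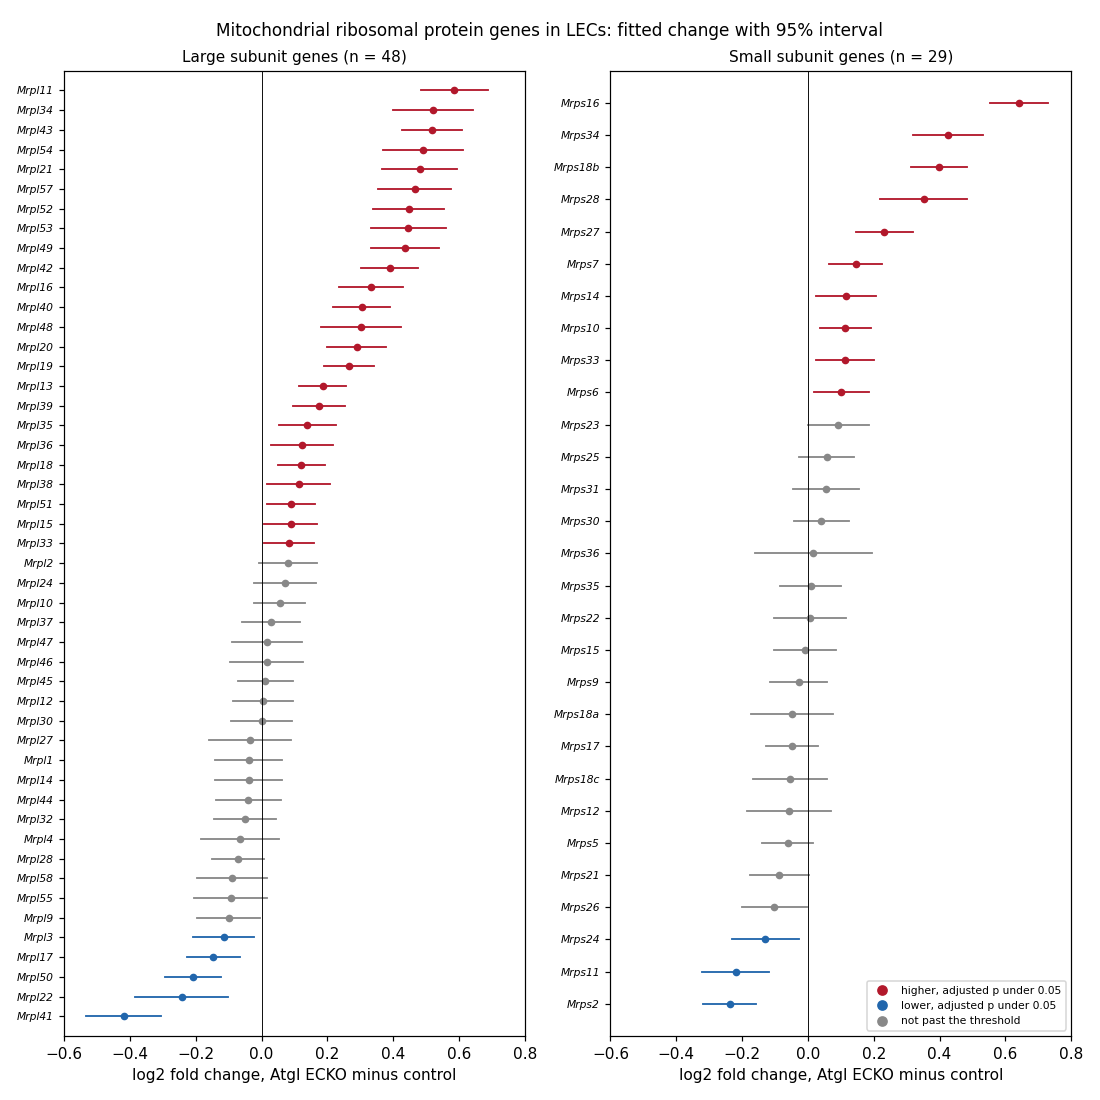
Fitted log2 fold change (*Atgl* ECKO minus control, horizontal axis) of each of the 48 large subunit and 29 small subunit genes, with its 95% interval from limma (n = 3 libraries per genotype); colours mark genes higher, lower or not called at an adjusted p under 0.05. Values run from -0.42 (Mrpl41) to 0.64 (Mrps16), and the intervals of most genes called neither way lie within 0.2 of 0.

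The large subunit, with 48 of the 77 members, held 24 of the 34 higher calls, while 5 of its genes were lower and 19 called neither way. These counts stand beside 34.2% higher and 36.2% lower over all tested genes. Among the 24 higher genes, 11 lay on chromosomes with a median above 0.15 over all tested genes. The median log2 fold change of the large subunit genes was 0.08. The summed level of the 48 genes was 1211, 1180 and 1230 CPM in the control libraries and 1338, 1315 and 1291 CPM in the *Atgl* ECKO libraries, a ratio of means of 1.09. All *Atgl* ECKO sums were above all control sums. The 29 genes of the small subunit had 10 higher, 3 lower and 16 called neither way, so 34.5% were higher, about the share of all tested genes, and their median log2 fold change was 0.02. The difference between the subunits was not tested. With the median fold change of each chromosome removed from its genes it was no longer present, with medians of 0.08 for both subunits, 20 of 48 large and 12 of 29 small subunit genes higher, and 4 and 2 lower, beside 31.4% higher and 32.3% lower among all tested genes. The small subunit median ran from -0.005 to 0.048 as each library was left out in turn. Their sums were 668, 651 and 675 CPM in control against 712, 698 and 680 CPM in *Atgl* ECKO libraries, a ratio of 1.05, with no overlap but a narrow gap. The ratio of the large to the small sum was 1.81, 1.81 and 1.82 in control and 1.88, 1.88 and 1.90 in *Atgl* ECKO libraries. Since sums over genes follow the genes with the most reads, they describe these libraries and carry no test here.

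The L7/L12 stalk of the large subunit, which recruits and activates the GTPases of translation, had 3 of 5 genes higher and none lower. For comparison, the whole test called 34.2% of genes higher and 36.2% lower. Among the 3 higher genes, *Mrpl11* (chromosome 19) and *Mrpl54* (chromosome 10) lie on chromosomes with a median above 0.15. With chromosome medians removed 4 of the 5 were higher and none lower, where that fit called 31.4% of genes higher and 32.3% lower. *Mrpl11*, the protein at the base of the stalk, had 21.8, 19.7 and 20.8 CPM in control against 31.4, 33.4 and 30.1 CPM in *Atgl* ECKO libraries. This was 1.52-fold with no overlap (log2 fold change 0.59, SE 0.05, limma adjusted p = 2.68e-08). *Mrpl53* and *Mrpl54*, mitochondria-specific proteins beside the stalk, were also higher. *Mrpl53* had 13.5, 15.6 and 15.4 CPM in control against 20.8, 20.8 and 20.0 CPM in *Atgl* ECKO libraries (log2 fold change 0.45, limma adjusted p = 2.28e-06). *Mrpl54* had 12.2, 13.0 and 14.5 CPM against 19.2, 19.4 and 18.3 CPM (0.49, limma adjusted p = 1.62e-06). For both, every *Atgl* ECKO library lay above every control library. *Mrpl10*, which anchors the L12 dimers to the stalk base, and *Mrpl12*, the L12 protein itself, were called neither way. *Mrpl10* had 33.8, 35.0 and 35.4 CPM in control against 36.3, 36.7 and 35.3 CPM in *Atgl* ECKO libraries (log2 fold change 0.06, 95% interval -0.02 to 0.13). *Mrpl12* had 35.1, 34.9 and 38.6 CPM and 37.1, 35.5 and 36.1 CPM (0.00, interval -0.09 to 0.09), with the genotypes interleaved. *Mrpl10* was called higher with chromosome medians removed (0.14, limma adjusted p = 0.00354) and with quantile normalization (0.10, limma adjusted p = 0.0163).

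Outside the stalk, the highest large subunit genes were *Mrpl34*, *Mrpl43*, *Mrpl21* and *Mrpl57*. *Mrpl34*, a small protein of bacterial type, had 12.6, 11.7 and 13.4 CPM in control against 19.5, 18.5 and 17.4 CPM in *Atgl* ECKO libraries (log2 fold change 0.52, SE 0.06, limma adjusted p = 6.89e-07). *Mrpl43*, a mitochondria-specific protein, had 22.5, 20.97 and 22.8 CPM against 32.1, 31.3 and 32.7 CPM (0.52, SE 0.04, limma adjusted p = 2.40e-08). In both genes each *Atgl* ECKO library exceeded each control library by a wide margin. The bacterial-type *Mrpl21* had 14.7, 14.0 and 16.1 CPM against 21.2, 22.1 and 20.3 CPM (0.48, limma adjusted p = 9.54e-07). *Mrpl57*, a mitochondria-specific protein formerly called *Mrp63*, had 12.8, 12.2 and 13.8 CPM against 18.8, 18.3 and 17.6 CPM (0.47, limma adjusted p = 1.02e-06). Neither gene showed overlap, and both lost their call with chromosome medians removed (0.08 with adjusted p = 0.195, and 0.04 with adjusted p = 0.521). Among the others, *Mrpl52*, *Mrpl49* and *Mrpl42* had log2 fold changes of 0.39 to 0.45. *Mrpl16*, *Mrpl40*, *Mrpl48*, *Mrpl20* and *Mrpl19* had 0.27 to 0.33. The remaining genes called higher were *Mrpl13*, *Mrpl39*, *Mrpl35*, *Mrpl36*, *Mrpl18*, *Mrpl38*, *Mrpl51*, *Mrpl15* and *Mrpl33*, with 0.08 to 0.19. *Mrpl36*, *Mrpl38*, *Mrpl51*, *Mrpl15* and *Mrpl33* were at the edge of the test. *Mrpl33* (limma adjusted p = 0.0492) lost its call without any 1 of the 6 libraries (adjusted p 0.0605 to 0.121), and *Mrpl15* (0.0468) without any of the control libraries or *Atgl* ECKO replicate 2 (0.0506 to 0.229). *Mrpl38* lost it without control replicate 1 or 2 or *Atgl* ECKO replicate 1 or 2 (0.0657 to 0.137), *Mrpl51* without control replicate 2 or 3 or *Atgl* ECKO replicate 1 or 2 (0.0542 to 0.101), and *Mrpl36* without control replicate 2 or *Atgl* ECKO replicate 1 (0.0728 and 0.0758).

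The lowest member was *Mrpl41*, a mitochondria-specific protein of the large subunit. It had 14.7, 13.2 and 13.5 CPM in control against 10.2, 10.4 and 9.70 CPM in *Atgl* ECKO libraries (log2 fold change -0.42, SE 0.05, limma adjusted p = 4.45e-06). All *Atgl* ECKO libraries lay below all control libraries. *Mrpl50*, also mitochondria-specific, had 35.5, 34.2 and 33.2 CPM against 30.1, 29.9 and 28.7 CPM (-0.21, limma adjusted p = 2.17e-04), again with no overlap. *Mrpl3*, a bacterial-type protein near the peptidyl transferase centre, had -0.12 (limma adjusted p = 0.0258), but its genotypes overlapped. Its call was lost without control replicate 1 (adjusted p = 0.132) and without *Atgl* ECKO replicate 2 (0.107) or 3 (0.0738).

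The wall and rim of the exit tunnel, through which the new chain leaves the large subunit, had none of 5 tested genes higher and 2 lower. For comparison, the whole test called 34.2% of genes higher and 36.2% lower, so the share of lower genes here was close to that background. *Mrpl22*, which lines the tunnel, had 7.81, 9.39 and 8.68 CPM in control against 7.23, 7.40 and 6.73 CPM in *Atgl* ECKO libraries (log2 fold change -0.24, SE 0.07, limma adjusted p = 0.00397). *Mrpl17*, at the tunnel rim, had 58.7, 55.6 and 58.9 CPM against 54.3, 50.3 and 51.6 CPM (-0.15, SE 0.04, limma adjusted p = 0.00266). The genotypes did not overlap in either gene, though the gap was narrow in *Mrpl22*, whose call was lost without moderation of the variances (adjusted p = 0.0555). *Mrpl24* and *Mrpl47*, also at the rim, and *Mrpl45*, which holds the ribosome to the inner membrane, had 0.07, 0.02 and 0.01 and were called neither way. With chromosome medians removed *Mrpl24* (0.14, limma adjusted p = 0.011) and *Mrpl45* (0.10, limma adjusted p = 0.0387) were called higher, and *Mrpl22* and *Mrpl17* stayed lower. *Mrpl23*, the sixth protein listed there, was below the threshold of 1 CPM and had no test. Its pseudogene *Mrpl23-ps1* had 7.18 ± 0.617 CPM in control against 7.40 ± 0.327 CPM in *Atgl* ECKO LECs, and reads of a gene and a near-identical copy may have been divided between them. The same holds for *Mrpl48*, whose pseudogene *Mrpl48-ps* was higher as well (3.40 ± 0.245 and 5.14 ± 0.307 CPM, limma adjusted p = 1.43e-05), and for *Mrps36*.

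The central protuberance, which contacts the head of the small subunit, had 4 of 6 genes higher and none lower. The higher ones were *Mrpl40*, *Mrpl48*, *Mrpl18* and *Mrpl38*, with log2 fold changes of 0.30, 0.30, 0.12 and 0.11. The counts in this paragraph from the main fit stand beside 34.2% higher and 36.2% lower over all tested genes. *Mrpl27* and *Mrpl46* had -0.04 and 0.02 and passed no test. Among large subunit genes of bacterial descent 12 of 29 were higher and 3 lower, and among the mitochondria-specific ones 12 of 19 were higher and 2 lower. Of the higher genes 3 and 8 lay on chromosomes with a median above 0.15 over all tested genes. With chromosome medians removed 12 of 29 and 8 of 19 were higher, and 2 of each class were lower. The shares of all tested genes in that fit were 31.4% higher and 32.3% lower. The difference between these classes was not tested, since members are not replicates.

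**Figure D2:**
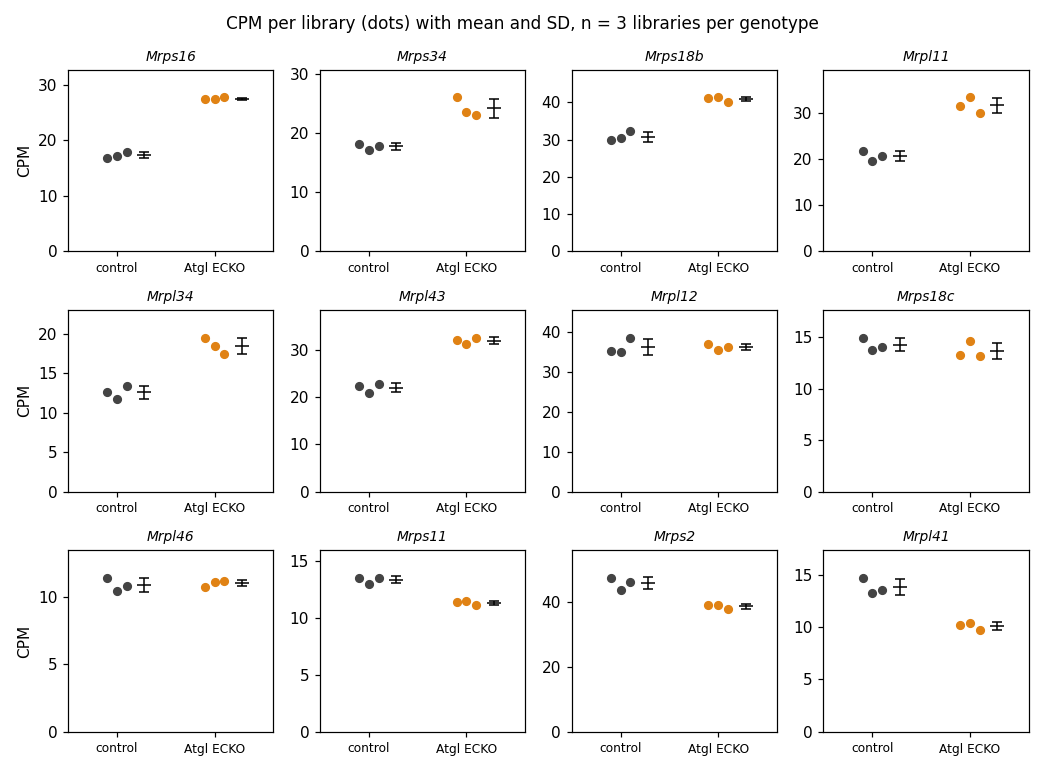
CPM in each library (dots, vertical axis from 0) of 12 mitochondrial ribosomal protein genes in control and *Atgl* ECKO LECs, with mean and SD beside them (n = 3 libraries per genotype). Dots of the genotypes are apart for Mrps16, Mrps34, Mrps18b, Mrpl11, Mrpl34 and Mrpl43 (higher) and for Mrps11, Mrps2 and Mrpl41 (lower), and interleave for Mrpl12, Mrps18c and Mrpl46.

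In the small subunit *Mrps16* had the highest fold change of all 77 members. *Mrps16* is a bacterial-type protein of the lower body, and its loss in humans causes a combined respiratory chain deficiency. It had 16.9, 17.1 and 17.9 CPM in control against 27.5, 27.4 and 27.7 CPM in *Atgl* ECKO libraries. This was 1.59-fold (log2 fold change 0.64, SE 0.04, limma adjusted p = 1.52e-09), with each genotype tightly grouped and no overlap. *Mrps34*, a mitochondria-specific protein whose loss in mice and humans lowers the small subunit, had 18.2, 17.2 and 17.9 CPM against 26.04, 23.5 and 23.1 CPM (0.43, SE 0.05, limma adjusted p = 1.57e-06). *Mrps28* had 4.69, 4.86 and 5.09 CPM against 6.84, 6.50 and 6.18 CPM (0.35, SE 0.06, limma adjusted p = 1.07e-04). *Mrps27*, a pentatricopeptide repeat protein, had 25.3, 24.2 and 25.5 CPM against 29.3, 30.4 and 28.8 CPM (0.23, limma adjusted p = 1.02e-04). In all of these genes the lowest *Atgl* ECKO library was above the highest control library. The other genes called higher, apart from *Mrps7* and *Mrps18b*, were *Mrps14*, *Mrps10*, *Mrps33* and *Mrps6*, with log2 fold changes of 0.10 to 0.12. *Mrps14*, *Mrps33* and *Mrps6* each lost their call without 3 or 4 of the libraries in turn, control and *Atgl* ECKO among them (adjusted p 0.0522 to 0.12).

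Mrps18 exists as 3 paralogs in mammals, of which *Mrps18b* was called higher. *Mrps18b* had 29.8, 30.3 and 32.3 CPM in control against 41.2, 41.3 and 40.2 CPM in *Atgl* ECKO libraries (log2 fold change 0.40, SE 0.04, limma adjusted p = 2.39e-07), with no overlap. *Mrps18c*, the paralog in the bacterial S18 position, had 15.0, 13.8 and 14.1 CPM against 13.3, 14.6 and 13.2 CPM (-0.05, 95% interval -0.17 to 0.06). *Mrps18a* had 20.8, 19.7 and 22.2 CPM against 21.3, 21.03 and 18.2 CPM (-0.05, interval -0.17 to 0.08). In both the genotypes overlapped, and the difference between the paralogs was not tested. Despite their symbols, the proteins of *Mrps18a* and *Mrps30* sit in the large subunit in structures of the mammalian ribosome, and *Mrps36* has been found to belong to the 2-oxoglutarate dehydrogenase complex. None of the 3 was called, though *Mrps30* was called higher with chromosome medians removed (0.16, limma adjusted p = 0.00236). *Mrps30* had a log2 fold change of 0.04 and *Mrps36*, with 5.90, 4.55 and 5.25 CPM against 5.91, 4.87 and 5.10 CPM, had 0.02 (interval -0.16 to 0.19). With *Mrps18a* and *Mrps30* counted in the large subunit and *Mrps36* in neither, the medians were 0.08 for 50 and 0.03 for 26 genes.

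Of 7 genes for proteins of the decoding centre and the mRNA path 2 were higher and 2 lower, 28.6% each way beside 34.2% and 36.2% of all tested genes. *Mrps7*, in the head of the subunit, had 40.7, 38.6 and 41.4 CPM in control against 45.9, 43.7 and 44.2 CPM in *Atgl* ECKO libraries (log2 fold change 0.15, limma adjusted p = 0.00281). *Mrps10* was the other that was higher. *Mrps2*, at the junction of head and body, had 47.4, 43.7 and 46.0 CPM against 39.1, 39.0 and 37.7 CPM (-0.24, SE 0.04, limma adjusted p = 4.38e-05). *Mrps24*, at the mRNA entry, had 17.7, 16.9 and 18.7 CPM against 16.3, 15.9 and 16.2 CPM (-0.13, limma adjusted p = 0.0244). All 3 genes with values here had no overlap. The call of *Mrps24* was lost without control replicate 3 (-0.09, adjusted p = 0.119) and without *Atgl* ECKO replicate 2 (-0.12, adjusted p = 0.0795). Those of *Mrps2* and *Mrps24* were lost with chromosome medians removed (-0.02 with adjusted p = 0.601, and -0.04 with adjusted p = 0.427). *Mrps5*, *Mrps9* and *Mrps12*, the homologue of the bacterial protein in which streptomycin resistance arises, were called neither way. *Mrps5* had -0.06, with all *Atgl* ECKO libraries below all control libraries. It was called higher with chromosome medians removed (0.15, limma adjusted p = 0.00172), that is, relative to the median of -0.21 on chromosome 2. *Mrps11*, on the platform, had 13.6, 13.0 and 13.5 CPM against 11.5, 11.5 and 11.1 CPM (-0.22, SE 0.05, limma adjusted p = 7.31e-04), with no overlap. Its divergent neighbour *Mrpl46* had 11.4, 10.4 and 10.9 CPM against 10.8, 11.1 and 11.2 CPM (0.02), with the genotypes interleaved. The difference between these neighbours was not tested. By descent, 6 of 16 bacterial-type small subunit genes were higher and 3 lower, and 4 of 10 mitochondria-specific ones were higher and none lower. These counts, too, stand beside 34.2% higher and 36.2% lower over all tested genes.

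The chromosome on which a member lies went with its fold change. The median log2 fold change over all tested genes was above 0.15 on chromosomes 10, 12, 14, 16 and 19, where 73.7% of tested genes were higher. All 13 members there were higher, 11 of the large and 2 of the small subunit, with a median of 0.45 beside 0.31 for all genes of these chromosomes. Chromosome 2 was the autosome with a median below -0.15 (-0.21, 65.5% of genes lower), and of its 4 members *Mrpl41* and *Mrps2* were lower and *Mrps5* and *Mrps26* had -0.06 and -0.10. On the other chromosomes 21 of 60 members were higher, 6 lower and 33 neither, beside 26.9% of genes higher and 40.3% lower. Across the 77 members, fold change and chromosome median had Spearman's rho of 0.64 and Pearson's r of 0.75, as a description over genes that share libraries and chromosomes. The 4 tested genes of the Y chromosome, of which none is a member, had a median of -4.43.

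With the median of its chromosome subtracted from every gene and the test repeated, 32 members were higher and 6 lower (41.6% and 7.79%, beside 31.4% and 32.3% of all tested genes). A call in this fit is relative to the chromosome median, which was subtracted as a fixed value, so its p-values leave out the uncertainty of that median. Of the 42 members called before, 28 kept their call (23 higher and 5 lower), 14 lost or turned it, while 9 others became higher. *Mrps16* then had 0.22 and *Mrpl11* 0.19, and both kept their call (limma adjusted p = 0.000418 and 0.00338). *Mrpl43* (0.12), *Mrpl54* (0.30), *Mrpl42* (0.20) and the lower *Mrpl41* (-0.20) also kept theirs with smaller fold changes. *Mrps34* (0.45) and *Mrps18b* (0.42), which lie on chromosome 17, changed little. *Mrpl34* on chromosome 8 went from 0.52 to 0.41 and kept its call. Besides *Mrpl21* and *Mrpl57*, the calls of *Mrpl49* (0.04, adjusted p = 0.489) and *Mrpl52* (0.02, adjusted p = 0.719) were lost. *Mrpl40* was left with 0.06 (adjusted p = 0.225). *Mrps6* on chromosome 16 went from higher to lower (-0.14, adjusted p = 0.00555). The source of the chromosome differences was not tested.

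**Figure D3:**
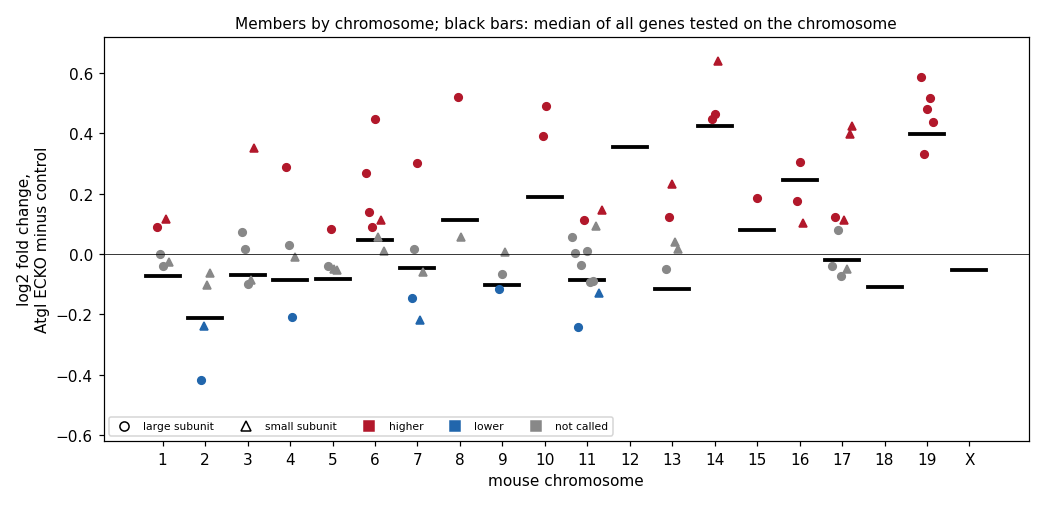
Log2 fold change (*Atgl* ECKO minus control, vertical axis) of the 77 members by mouse chromosome, circles for the large and triangles for the small subunit, coloured by call, with black bars for the median of all tested genes of each chromosome. The 13 members on chromosomes 10, 14, 16 and 19 are all higher, while Mrpl34 (0.52, chromosome 8) and Mrps34 (0.43, chromosome 17) stand well above their chromosome's bar.

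Reads could have been shared with neighbours for some members, since 24 of the 77 overlap an exon of another tested gene and the sources used here do not give the strandedness of the counting. *Mrpl43* overlaps *Twnk*, which encodes the mitochondrial DNA helicase, and both had a log2 fold change of about the same size (0.52 and 0.53). *Mrpl49* overlaps *Syvn1* (0.44 and 0.50), *Mrpl21* overlaps *Ighmbp2* (0.48 and 0.41) and *Mrps34* overlaps *Nme3* and *Mapk8ip3* (0.43, beside 0.58 and 0.21). *Mrpl43*, *Mrpl49* and *Mrpl21* lie on chromosome 19, where the median of all tested genes was 0.396. *Mrps18b* and *Mrpl53* each overlap a predicted gene (0.40 and 0.20, and 0.45 and 0.23). *Mrps11* and *Mrpl46* overlap each other on opposite strands (-0.22 and 0.02), and *Mrps24* overlaps *Urgcp* on the same strand (-0.13 and -0.12). Other pairs had opposite signs, among them *Mrpl19* and *Gcfc2* (0.267 and -0.211), *Mrps7* and *Gga3* (0.145 and -0.515), and *Mrps25* and *Nr2c2* (0.057 and -0.131). Whether reads were shared was not tested. The values of these members are uncertain to that extent. *Mrps16*, *Mrpl11*, *Mrpl34*, *Mrpl54*, *Mrpl57* and *Mrpl41* overlap no tested gene. Members are short, with a median coding length of 588 bases beside 1392 for tested genes. Among members of up to 600 coding bases 52.5% were higher and 12.5% lower, and among longer ones 35.1% and 8.11%, beside 38.8% and 30.2% of all tested genes of up to 600 bases.

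Mitoribosomal proteins that carry other symbols were higher in 3 of 5 cases. *Aurkaip1* (mS38) had 24.6 ± 0.951 CPM in control against 39.0 ± 1.72 CPM in *Atgl* ECKO LECs (log2 fold change 0.64, limma adjusted p = 2.45e-09), and *Chchd1* (mS37) had 22.0 ± 0.330 and 35.2 ± 2.22 CPM (0.66, limma adjusted p = 4e-09). *Gadd45gip1*, a large subunit protein near the tunnel exit, had 0.18. *Dap3*, a GTP-binding protein of the small subunit head, and *Ptcd3*, a pentatricopeptide repeat protein, had -0.02 and 0.00 and passed no test.

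Of 29 tested genes for assembly of the ribosome and modification of its rRNA, 8 were higher, 3 lower and 18 neither, and their median log2 fold change was 0.03. The endoribonuclease gene *Ybey* (0.58), *Mettl17* (0.44), the helicase gene *Ddx28* (0.36) and *Trmt10c* (0.36), a subunit of mitochondrial RNase P, had the smallest adjusted p among those that rose. *Rbfa*, which binds the maturing small subunit, *Nsun4*, an rRNA methyltransferase, and *Afg3l2*, a protease that processes *Mrpl32*, were lower, with -0.21, -0.18 and -0.10. *Mrpl32* itself had -0.05 and was called neither way. Of 16 translation factors 6 were higher and 3 lower. *Oxa1l*, which inserts new chains into the inner membrane, had 25.4 ± 1.47 CPM in control against 39.5 ± 1.04 CPM in *Atgl* ECKO LECs (0.62, limma adjusted p = 5.55e-09). The release factor gene *Mtrf1* (0.56), *Slirp* (0.36) and the recycling factor gene *Mrrf* (0.27) also rose, while *Guf1*, the homologue of bacterial LepA, fell by 0.29 on the log2 scale. The elongation factor gene *Tufm* (0.02) and *Lrpprc* (-0.02), the partner of *Slirp* in holding mitochondrial mRNAs, passed no test.

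Of 15 regulators of mitochondrial transcription and biogenesis 6 were higher and 1 was lower. Those that rose included the coactivator gene *Pprc1* (0.40), *Yy1* (0.36) and *Myc* (0.31), together with *Tfam* (0.23), which packages mitochondrial DNA, and its RNA polymerase *Polrmt* (0.19). *Gabpb1*, a subunit of GABP, had 55.9 ± 1.98 CPM in control against 41.7 ± 2.05 CPM in *Atgl* ECKO LECs (-0.42, limma adjusted p = 2.11e-07), and lies on chromosome 2 (median of its genes -0.21). Its DNA-binding partner *Gabpa* had 0.08 and *Nrf1* had 0.01, both called neither way. Among 17 mitochondrial aminoacyl-tRNA synthetases 7 were higher and 1 lower. Nuclear-encoded subunits of oxidative phosphorylation had 27 of 78 higher and 18 lower, with a median of 0.01, and proteins of the cytosolic ribosome had 53 of 79 higher and 1 lower, with a median of 0.14. Some of the genes called higher in these lists lie on the chromosomes with high medians. These include 4 of 6 translation factors (among them *Oxa1l* and *Mtrf1* on chromosome 14 and *Slirp* on 12), 5 of 6 regulators (*Pprc1* on 19, *Yy1* on 12 and *Tfam* and *Polrmt* on 10 among them), 3 of 8 assembly genes (*Mettl17* on 14, *Ybey* on 10 and *Trmt10c* on 16), and *Chchd1* on 14. They also include 13 of 27 oxidative phosphorylation subunits, 12 of 53 cytosolic ribosomal proteins and 1 of 7 mitochondrial aminoacyl-tRNA synthetases. With chromosome medians removed 13 assembly genes were higher and none lower, 4 translation factors were higher and 2 lower, 1 regulator was higher and 4 lower, and 2 of the 5 mitoribosomal proteins under other symbols were higher. In the same fit 28 oxidative phosphorylation subunits were higher and 7 lower (35.9% and 8.97%, beside 41.6% and 7.79% of the members), with a median of 0.06. Of the cytosolic ribosomal proteins 62 were higher and 1 lower, and of the mitochondrial aminoacyl-tRNA synthetases 10 were higher and none lower. Each of these lists stands beside 34.2% higher and 36.2% lower over the whole test, and beside 31.4% and 32.3% with chromosome medians removed.

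**Figure D4:**
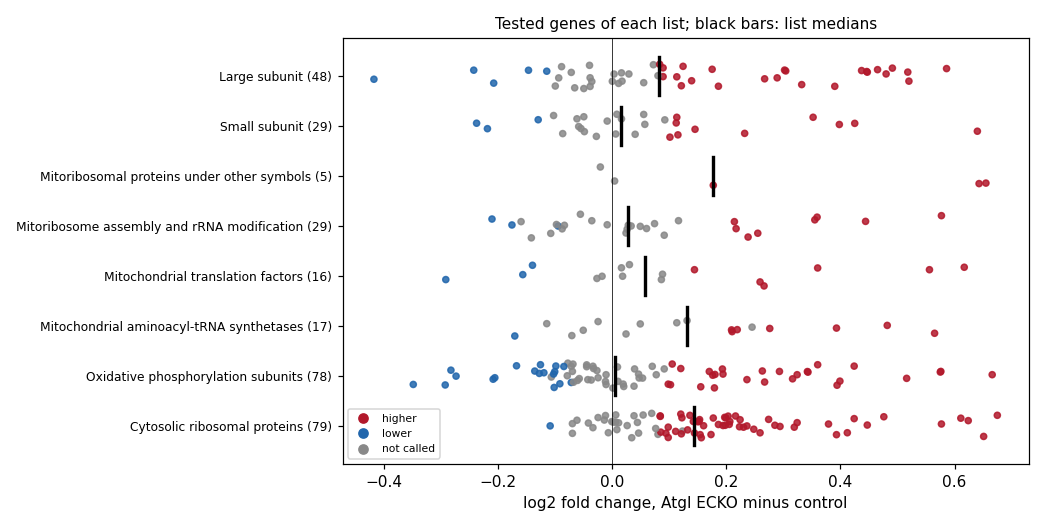
Log2 fold change (*Atgl* ECKO minus control, horizontal axis) of each tested gene in the large and small subunit and in 6 lists of related genes, with the number tested in brackets, coloured by call; black bars are list medians. The large subunit bar stands at 0.08, the small subunit bar at 0.02, oxidative phosphorylation at 0.01 and the cytosolic ribosome at 0.14.

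For the 35 members called neither way the data set bounds on the difference between these libraries, whose spread may be technical. In 33 of these members the 95% interval of the log2 fold change lay within 0.2 of 0. The median interval over the members reached 0.09 to either side. These bounds rest on the spread between libraries, with a median coefficient of variation of 3.36% in control and 3.03% in *Atgl* ECKO libraries over the members. Counting reads alone would give 2.61% at the median member, which had 1164 to 1604 reads per library. Of the 35 members, 20 stayed uncalled under every alternative setting of the processing, and 9 were called higher with chromosome medians removed.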

How the data were processed

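RNA was taken from untreated LECs (3 control and 3 *Atgl* ECKO libraries). As the methods and labels state, the authors used STAR for alignment and the E/M method of Partek for quantification, and deposited gene values as CPM. The sources used here give neither versions nor strandedness, and the human build hg19 is named although the symbols are those of mouse. From 20430 lines 21 with a date for a symbol were left out. Depth was 55.5 to 68.9 reads per CPM, read from the step between low values. Only 62.0% to 64.6% of low values were whole reads (within 0.05 reads), so counts were not recovered and no count model was used.

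limma 3.58.1 in R 4.3.3 (lmFit, eBayes with trend) was fitted to log2(CPM + 1) of the 12837 genes that averaged 1 CPM or more, with genotype as the only term and two-sided p-values adjusted by Benjamini-Hochberg. By permutation, 3 libraries against 3 cannot give an exact p below 0.1. Chromosomes and start windows came from RefSeq (GRCm38.p6) by symbol, chromosomes for 97.13% of tested genes and windows for 9125 of them. Coding lengths came from GENCODE. The procedure was tested on simulated data. Members and lists were chosen with earlier results of these data known. Full values were given for up to 6 of the highest and 6 of the lowest members called without overlap in each subunit (4 large and 3 small subunit genes were lower), for the stalk, the Mrps18 paralogs and the members nearest 1 CPM, and other members were named after their values were seen.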

Additional observations from a re-analysis of the deposited data

How the results depend on the processing

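The direction and the counts held under most settings. The settings were pseudocounts of 0.1 and 3 CPM, no filter, a filter at 5 CPM, median ratios, quantile normalization, limma without trend, no moderation of the variances, a replicate block, chromosome medians removed and each library left out in turn. Over all alternatives the large subunit had 19 to 26 genes higher and 4 to 7 lower, and the small subunit 7 to 12 higher and 2 to 4 lower. No scaling moved the median of all tested genes by over 0.1 on the log2 scale. The median log2 fold change of the small subunit was 0.076 with chromosome medians removed, against 0.016, beside 0.078 and 0.081 for the large subunit, and -0.005 to 0.048 without each replicate in turn. The cause was not tested. That of the large subunit was 0.067 to 0.098 without each replicate. Of the 42 calls, 4 to 7 were lost without a control library and 3 to 8 without an *Atgl* ECKO library, all of them with log2 fold changes under 0.15 in size. With chromosome medians removed 14 of the 42 calls were lost or turned, 9 members became higher, and 17 members, most of them near 0, changed sign, of which *Mrpl16*, *Mrpl39*, *Mrps26*, *Mrps5* and *Mrps6* were called before or after. Of the calls, 18 of 34 higher and 4 of 8 lower ones held under every alternative, among them *Mrps16*, *Mrpl11*, *Mrpl34*, *Mrpl43*, *Mrps34* and *Mrps18b* (higher) and *Mrpl41*, *Mrpl50*, *Mrpl17* and *Mrps11* (lower). The replicate numbers did not pair the libraries (correlations of deviations 0.086, 0.091 and -0.151), and in the fit with a replicate block the large subunit had 22 genes higher and the small subunit 9, with 5 and 3 lower, *Mrpl15*, *Mrpl33* and *Mrps6* losing their call and the *Pnpla2* log2 fold change at -1.48. A count model was not run.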
